A study of Mus musculus with 6 samples.

Results

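The genes described here encode the core of the desmosome: the desmogleins Dsg1a, Dsg1b, Dsg2 and Dsg3, the desmocollins Dsc1, Dsc2 and Dsc3, the plakin Dsp (desmoplakin), and the armadillo proteins Jup (plakoglobin) and Pkp1 (plakophilin). They were taken by gene name, with earlier results of these data known, and make up 10 of the 55367 gene names in the count table. All 10 passed the filter on low counts, and 14916 genes did so in all. The 7 cadherin genes lay together on chromosome 18, and Dsp, Jup and Pkp1 lay on chromosomes 13, 11 and 1.

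A desmosome joins neighbouring cells by its cadherins, whose outer parts bind across the gap in the presence of calcium. Their tails bind plakoglobin and plakophilins, and these bind desmoplakin, which holds the keratin filaments. In the epidermis, Dsg3 and Dsc3 belong mainly to the basal layer, whereas Dsg1 and Dsc1 increase as cells move upwards and differentiate, and iASPP, the product of Ppp1r13l, is known to bind desmosome components.

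The study asked which transcripts depend on iASPP in primary mouse keratinocytes. Cells came from the skin of newborn Ppp1r13l flox/flox;Cre+ERT pups of mixed C57BL/6 and 129/Sv background, so cultures of both groups carried the floxed alleles and the Cre. The cells of each of 3 batches were divided between a culture given tamoxifen (iASPP-KO, n = 3) and a culture without it (iASPP-WT, n = 3). They grew on collagen in low-calcium medium, and after 24 h this was changed for medium with or without the drug. Per the methods, the cultures were then kept for several days. Total RNA was sequenced after removal of ribosomal RNA. Cre-ERT was expressed from the Gt(ROSA)26Sor locus and removed a single Ppp1r13l exon. Since only iASPP-KO cultures received tamoxifen, the drug and the deletion cannot be told apart. The labels give 1 mM tamoxifen and the methods give 1 μM.

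Library totals ran from 20202517 to 25157117 counts, and the 10 desmosome genes together took 0.771% to 1.30% of them. Ppp1r13l stood at 32.7, 45.1 and 21.0 CPM (counts scaled to a library size of 1000000) in the iASPP-WT cultures of batches 1 to 3 and at 14.3, 17.7 and 5.91 CPM in the iASPP-KO cultures, a log2 fold change of -1.45 ± 0.18 (SE, adjusted p = 0.003). The counts of Ppp1r13l are per gene, so reads on the removed exon and on the remaining exons cannot be told apart. Summed markers of keratinocytes ran from 22866 to 27413 CPM in the 6 cultures. Batch 3 stood apart in other markers: the summed fibroblast markers were at 454 and 669 CPM there and at 33.7 to 51.5 CPM in batches 1 and 2, and the summed suprabasal keratinocyte markers were at 851 and 951 CPM there and at 2289 to 2876 CPM in the others.

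Per kilobase of exon, Dsp was the most abundant of the 10 transcripts and Dsg2 the least. The mean level in iASPP-WT cultures was 460 ± 170.0 CPM per kilobase for Dsp (SD, n = 3), 370.1 ± 53.9 for Dsc3, 269 ± 47.8 for Pkp1 and 148 ± 32.8 for Jup. Dsg3 followed at 113 ± 22.5, Dsg1b at 77.9 ± 30.1, Dsc1 at 56.7 ± 18.2, Dsc2 at 35.5 ± 14.5, Dsg1a at 30.4 ± 23.9 and Dsg2 at 3.10 ± 1.08 CPM per kilobase. By these iASPP-WT means of single genes, the basal cadherins Dsc3 and Dsg3 were the highest desmocollin and desmoglein. The summed level of Dsg1a and Dsg1b was 1.21, 0.945 and 0.618 times that of Dsg3 in iASPP-WT cultures of batches 1 to 3. In the iASPP-KO cultures it was 1.42, 1.18 and 0.646 times that of Dsg3, so the order of the summed Dsg1 genes and Dsg3 differed between batches. Pkp1 stood above Jup, Jup above Dsg3, Dsg1b above Dsc1, Dsc3 above Pkp1 and Dsg1a above Dsg2 in 6 of 6 cultures. Dsp stood above Dsc3 in 5 of 6 cultures. The neighbours Dsg3 and Dsg1b, Dsc1 and Dsc2, and Dsc2 and Dsg1a kept their order in 4 of 6. In the iASPP-WT cultures alone, Dsg3 stood above Dsg1b and Dsc1 above Dsc2 in every batch. These orders were not tested, and they depend on the exon length used. That length was 6436 bases for Jup, whose longest transcript had 3205 bases. For Pkp1 it was 5024 bases, against 4669 in its longest transcript.

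**Figure D1:**
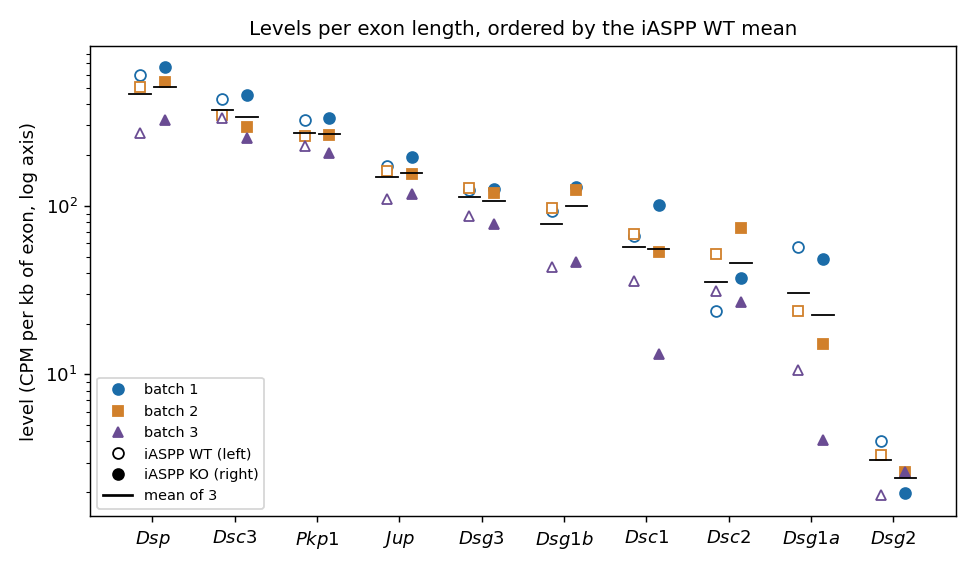
The level of each desmosome gene in the 6 cultures, in CPM per kilobase of exon on a log axis, with genes ordered by the iASPP-WT mean. Open symbols are iASPP-WT and filled symbols iASPP-KO cultures, symbols mark the batch, and lines mark means of 3. The means fall from 460 for Dsp to 3.10 for Dsg2, and most batch 3 symbols lie lowest.

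Between iASPP-KO and iASPP-WT keratinocytes, no desmosome gene had an adjusted p below 0.05 (edgeR's quasi-likelihood test, p-values adjusted by Benjamini-Hochberg over all genes): 0 of 10 were higher and 0 of 10 lower. Among all genes tested, 4.12% were called, 2.17% higher and 1.95% lower. The study's own DESeq2 comparison reported more genes in each direction at the same adjusted threshold. At an unadjusted p below 0.05, 2 of the 10 were counted (Dsg1a and Dsg1b), against 16.7% of all genes, and DESeq2 called 1 lower (Dsg1a) and none higher, against 3.31% and 3.91% of the genes it tested, 7.22% in all. The median log2 fold change of the 10 was -0.056, beside 0.0057 for all genes. The direction was the same in all 3 batches for 3 of the 10 (Dsg1a, Dsg1b and Dsp), against 39.3% of all genes. Levels in the 2 groups overlapped for every desmosome gene, and they did not overlap for 10.7% of all genes.

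Dsg1a encodes a desmoglein of the differentiating layers and lies at chr18:20310811-20343350 (GRCm38, plus strand). It was measured at 324, 135 and 60.1 CPM in the iASPP-WT cultures of batches 1 to 3, and at 275, 86.6 and 23.1 CPM in the iASPP-KO cultures of the same batches. The iASPP-KO culture was the lower one in every batch, but the groups overlapped because batch 1 was high and batch 3 low in both. The log2 fold change was -0.74 ± 0.19 (SE), a level 0.600 times that of iASPP-WT with a 95% interval of 0.451 to 0.798. The adjusted p was 0.0558, just over the threshold, with within-batch log2 fold changes of -0.24, -0.64 and -1.38. It stayed over the threshold with a robust dispersion (0.0801), with condition alone in the model (0.980) and without batch 2 (0.150). It lay under the threshold in 7 of 10 alternative fits. Among them were DESeq2 (0.0025), the fit without batch 1 (0.0135, log2 fold change -0.998) and the fit without batch 3 (0.0084, log2 fold change -0.44). Of all genes, these fits called lower 3.31% by DESeq2, 2.19% with DESeq2's size factors, 2.22% with upper-quartile scaling, 1.54% with no filter and 2.64% with a stricter filter. Without batches 1, 2 and 3 they called 0.978%, 0.768% and 4.34% lower and 1.09%, 1.14% and 5.20% higher, to be read beside each member that passed only without a batch.

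Dsg1b, the neighbouring copy at chr18:20376729-20410196 (plus strand), was measured at 370, 386 and 172 CPM in the iASPP-WT cultures and at 513, 493 and 183 CPM in the iASPP-KO cultures of batches 1 to 3. The iASPP-KO culture was the higher one in every batch, and the groups overlapped. Its log2 fold change was 0.31 ± 0.12 (SE, adjusted p = 0.209), or 1.24-fold with a 95% interval of 1.03 to 1.48. The difference was smallest in batch 3, with log2 fold changes of 0.47, 0.35 and 0.093, and Dsg1b passed the threshold when that batch was left out (log2 fold change 0.41, adjusted p = 0.0103).

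The paralogs Dsg1a and Dsg1b are alike in sequence, so their counts were also examined together. Of the 42-base windows of the longest Dsg1a transcript, 33.9% also occurred in a Dsg1b transcript, and 48.8% of those of Dsg1b occurred in a Dsg1a transcript, so the division of reads between the pair is uncertain for these stretches. Summed with their relative Dsg1c (0 to 12 counts in a culture), they had a log2 fold change of 0.058 ± 0.12 (SE, adjusted p = 0.867). The sum therefore showed no detectable difference while its parts pointed in opposite directions.

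Dsg1a made up 46.7% of the Dsg1a and Dsg1b counts in the iASPP-WT culture of batch 1 (exact 95% interval 45.9% to 47.5%), 25.9% in that of batch 2 (25.2% to 26.7%) and 26.0% in that of batch 3 (24.8% to 27.2%). In the iASPP-KO cultures the share was 34.9% (34.2% to 35.6%), 14.9% (14.3% to 15.6%) and 11.2% (10.3% to 12.1%). The share was thus lower in the iASPP-KO culture of each batch, by more than the counting error, which is all these intervals cover. The difference was -11.8, -11.0 and -14.7 percentage points, with a mean of -12.5 ± 1.96 (SD, n = 3 pairs), and an exact two-sided sign-flip permutation test gave p = 0.25, the smallest value that 3 pairs allow. This measure was chosen after the values of both genes had been seen.

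**Figure D2:**
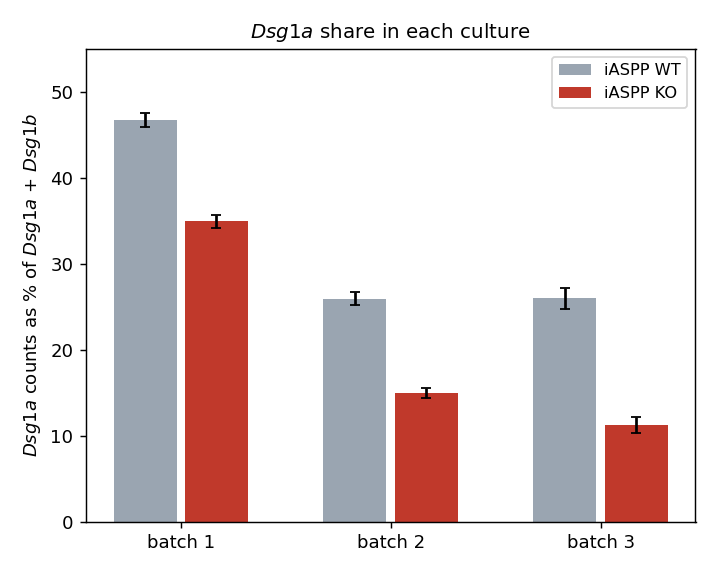
Dsg1a counts as a percentage of Dsg1a plus Dsg1b counts in each culture, with bars from 0 for iASPP-WT (grey) and iASPP-KO (red) and error bars giving exact 95% binomial intervals. The red bar is the lower one in each batch, by 11.8, 11.0 and 14.7 percentage points.

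Dsg3, the main desmoglein of the basal layer and the antigen of pemphigus vulgaris, lies at chr18:20510274-20547459 (plus strand). It was at 863, 894 and 608 CPM in iASPP-WT and at 874, 826 and 543 CPM in iASPP-KO cultures of batches 1 to 3. The groups overlapped almost fully, and the log2 fold change was -0.087 ± 0.11 (SE, adjusted p = 0.765), with a 95% interval of -0.32 to 0.15. The level of Dsg1a plus Dsg1b over that of Dsg3, each per kilobase, was higher in the iASPP-KO culture of each batch by 0.22, 0.32 and 0.064 on the log2 scale. The mean difference was 0.20 ± 0.13 (SD, n = 3 pairs, exact two-sided sign-flip permutation p = 0.25). With counts not divided by length, the mean difference was 0.14 (n = 3 pairs, exact two-sided sign-flip permutation p = 0.5). In batch 3 that ratio was marginally lower in iASPP-KO (4850 over 12770 counts) than in iASPP-WT (5202 over 13659 counts). The same direction in all 3 batches thus depended on the division by length.

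Dsg2, the desmoglein found also in simple epithelia and heart, lies at chr18:20558074-20604521 (plus strand) and was the scarcest member, with 357 to 712 counts in a culture. Its levels were 33.4, 27.6 and 15.9 CPM in iASPP-WT and 16.3, 21.8 and 21.7 CPM in iASPP-KO cultures of batches 1 to 3. The iASPP-KO culture was lower in batches 1 and 2 and higher in batch 3. The log2 fold change was -0.31 ± 0.25 (SE, adjusted p = 0.622), and it became -0.68 (adjusted p = 0.0091) without batch 3 and 0.057 (adjusted p = 0.981) without batch 1.

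Dsc1, the desmocollin of the upper epidermis at chr18:20084184-20114871 (minus strand), was at 335, 342 and 180.2 CPM in iASPP-WT and at 509, 268 and 66.3 CPM in iASPP-KO cultures of batches 1 to 3. The iASPP-KO level was the higher one in batch 1 and the lower one in batches 2 and 3, and it spread over a wider range than the iASPP-WT level. The within-batch log2 fold changes of 0.60, -0.35 and -1.44 gave a fitted value of -0.39 ± 0.29 (SE, adjusted p = 0.585). Without batch 1 it was -0.89 and passed the threshold (adjusted p = 0.0436), and without batch 3 it was 0.13 (adjusted p = 0.680). The ratio of Dsc1 to the basal Dsc3, each per kilobase, differed by 0.52, -0.11 and -1.05 on the log2 scale, a mean of -0.21 ± 0.79 (SD, n = 3 pairs, exact two-sided sign-flip permutation p = 0.75).

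Dsc2, a desmocollin of wide tissue distribution at chr18:20030633-20059554 (minus strand), was at 125, 273 and 164 CPM in iASPP-WT and at 197, 388 and 142 CPM in iASPP-KO cultures of batches 1 to 3. The iASPP-KO level was the higher one in batches 1 and 2 only, and batch 2 was the highest in both groups. The log2 fold change was 0.32 ± 0.16 (SE, adjusted p = 0.354), or 0.58 without batch 3 (adjusted p = 1.0e-04).

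Dsc3, the basal desmocollin at chr18:19960930-20002351 (minus strand), was at 2332, 1879 and 1788 CPM in iASPP-WT and at 2462, 1594 and 1365 CPM in iASPP-KO cultures of batches 1 to 3. Both the highest and the lowest level were in iASPP-KO cultures. The log2 fold change was -0.18 ± 0.12 (SE, adjusted p = 0.515), with a 95% interval of -0.45 to 0.082.

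The cytoplasmic members and Dsg3 showed the narrowest intervals. Dsp at chr13:38151294-38198577 (plus strand), which ties the plaque to keratin, was at 5802, 4898 and 2616 CPM in iASPP-WT and at 6406, 5244 and 3127 CPM in iASPP-KO cultures of batches 1 to 3. The iASPP-KO culture was the higher one in every batch, by less than the batches differed, with a log2 fold change of 0.17 ± 0.10 (SE, adjusted p = 0.480). Jup at chr11:100368958-100397763 (minus strand), which adherens junctions share, was at 1102, 1042 and 710 CPM in iASPP-WT and at 1261, 992 and 752 CPM in iASPP-KO cultures of batches 1 to 3 (log2 fold change 0.070 ± 0.11, adjusted p = 0.822). Pkp1 at chr1:135871395-135919207 (minus strand), which clusters cadherins and desmoplakin in the upper epidermis, was at 1612, 1308 and 1138 CPM in iASPP-WT and at 1677, 1319 and 1028 CPM in iASPP-KO cultures (log2 fold change -0.026 ± 0.11, adjusted p = 0.939, and 0.034 without batch 3). The 95% intervals of the 3 genes ran from -0.060 to 0.39, from -0.17 to 0.31 and from -0.26 to 0.21, so differences of those sizes remain possible.

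**Figure D3:**
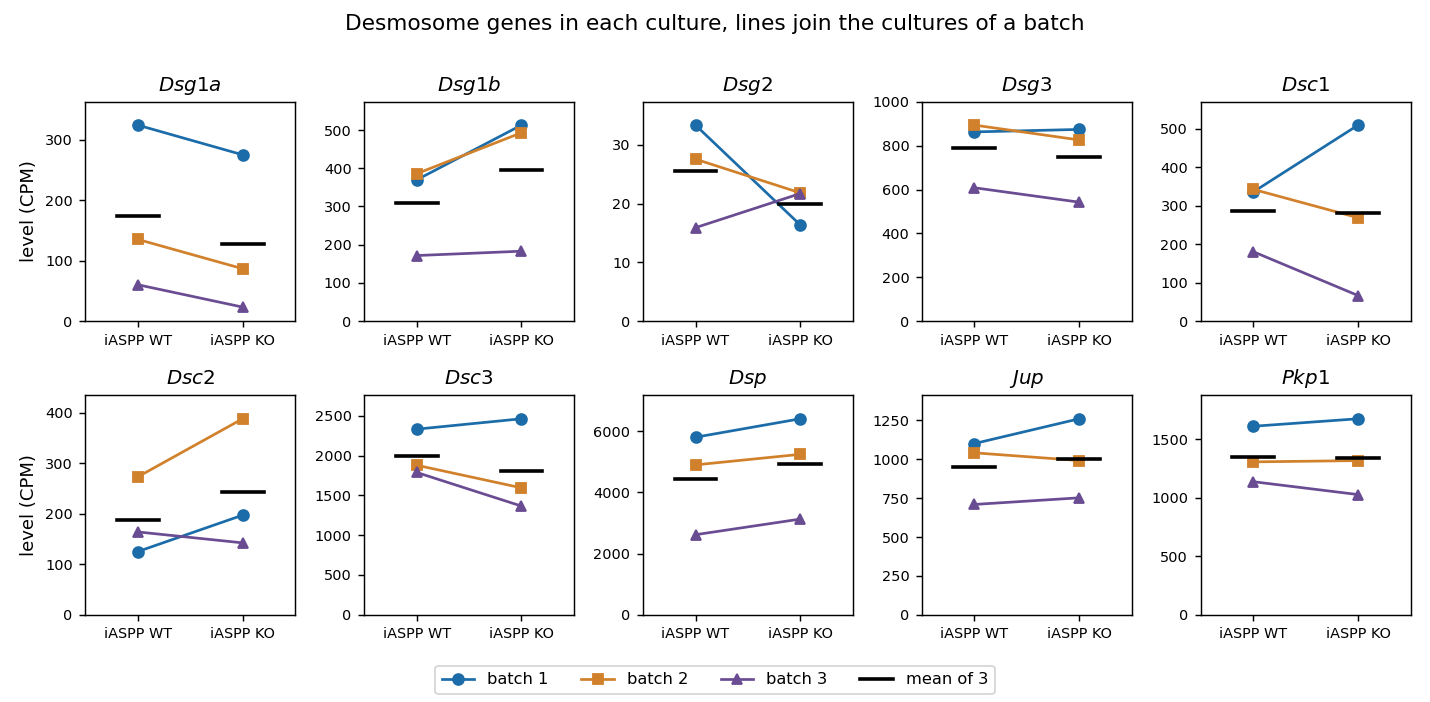
The level of each of the 10 desmosome genes in every culture, in CPM on axes that start at 0, with lines joining the iASPP-WT and iASPP-KO cultures of a batch and black bars giving means of 3. The lines for Dsg1a slope down and those for Dsg1b and Dsp slope up in all 3 batches, while those of the other genes cross or differ in direction.

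For most of these genes the batches differed more than the groups did. In the same fit, an F test of the batch terms passed the threshold for 9 of the 10 desmosome genes (all but Dsg2), against 15.8% of all genes tested. In batch 3, 8 of the 10 were lower than in the mean of batches 1 and 2 and none was higher, against 11.7% and 9.39% of all genes, and the median log2 difference was -0.59, beside 0.020 for all genes. Dsg2 and Dsc3 were the members that did not pass (log2 difference -0.34 with adjusted p = 0.409, and -0.38 with adjusted p = 0.0595). Lower levels in batch 3 were not particular to the desmosome genes. Of 12 adherens junction genes, described below, 7 were lower there and none higher (median log2 difference -0.52). Of 10 keratins, also described below, 4 were lower and none higher (median -0.63).

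The differentiation-linked cadherins showed the largest batch differences. Dsg1a was 4.72-fold lower in batch 3 (log2 difference -2.24 ± 0.22, SE, adjusted p = 0.0001, and -1.54 without batch 1 or -2.995 without batch 2), Dsc1 3.12-fold (-1.64 ± 0.33, adjusted p = 0.0062) and Dsg1b 2.46-fold (-1.30 ± 0.13, adjusted p = 0.00013). The basal Dsg3 was lower by a smaller amount (-0.59 ± 0.12, adjusted p = 0.0057) and Dsp 1.94-fold lower (-0.96 ± 0.11, adjusted p = 0.0003). Jup, Dsc2 and Pkp1 were lower by 0.58, 0.55 and 0.44 on the log2 scale (adjusted p = 0.0066, 0.0474 and 0.0216). For Dsc2 the difference was -0.042 without batch 2 (adjusted p = 0.930), and for Pkp1 it was -0.29 without batch 1 (adjusted p = 0.240). Dsc3 passed without batch 2 (-0.62, adjusted p = 0.0391), and Dsc1 did not pass by DESeq2 (adjusted p = 0.0546) or with the robust dispersion (0.174).

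Markers of other cells moved with batch 3 as well. All 6 fibroblast markers were higher there and 5 of 6 suprabasal keratinocyte markers lower, while 1 of 6 keratinocyte markers was lower and none higher. Over all genes, 9.39% were higher and 11.7% lower in batch 3. Of the defining fibroblast markers, Lum was at 0 counts in the iASPP-WT culture of batch 1. Melanocyte markers summed to 1018 and 1033 CPM in batch 3 and to 340 to 1082 CPM in the others, and all 5 were higher in batch 3 than in the mean of the others. Leukocyte markers summed to 64.4 and 82.0 CPM in batch 3 and to 43.5 to 70.0 CPM elsewhere. Of the 5 tested (all but Tyrobp), 1 was higher in batch 3 (Lyz2, log2 difference 4.47) and 2 were lower (Csf1r -2.35, Cd68 -1.92). Ptprc, Adgre1 and Tyrobp were at 0 counts in the iASPP-WT culture of batch 2. Endothelial markers summed to at most 13.0 CPM in any culture, with Cdh5 at 0 counts in 3 of 6. Between iASPP-KO and iASPP-WT, 2 of 6 fibroblast markers were lower (summed level 36.7 to 454 against 33.7 to 669 CPM). Of the 5 leukocyte markers tested, 1 was higher in iASPP-KO (Csf1r, log2 fold change 1.11, adjusted p = 0.0206). The summed leukocyte level was 64.9 to 82.0 against 43.5 to 64.4 CPM. Lyz2 made up most of this sum in batch 3, and Csf1r and Cd68 most of it elsewhere, so it does not follow a single marker. Of the 6 suprabasal markers 1 was higher and 1 lower (951 to 2876 against 851 to 2548 CPM). Among all genes tested, 2.17% were higher and 1.95% lower in iASPP-KO. In such bulk samples fewer cells of a type and less RNA per cell cannot be told apart, and the part of these cells in either difference was not tested.

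**Figure D4:**
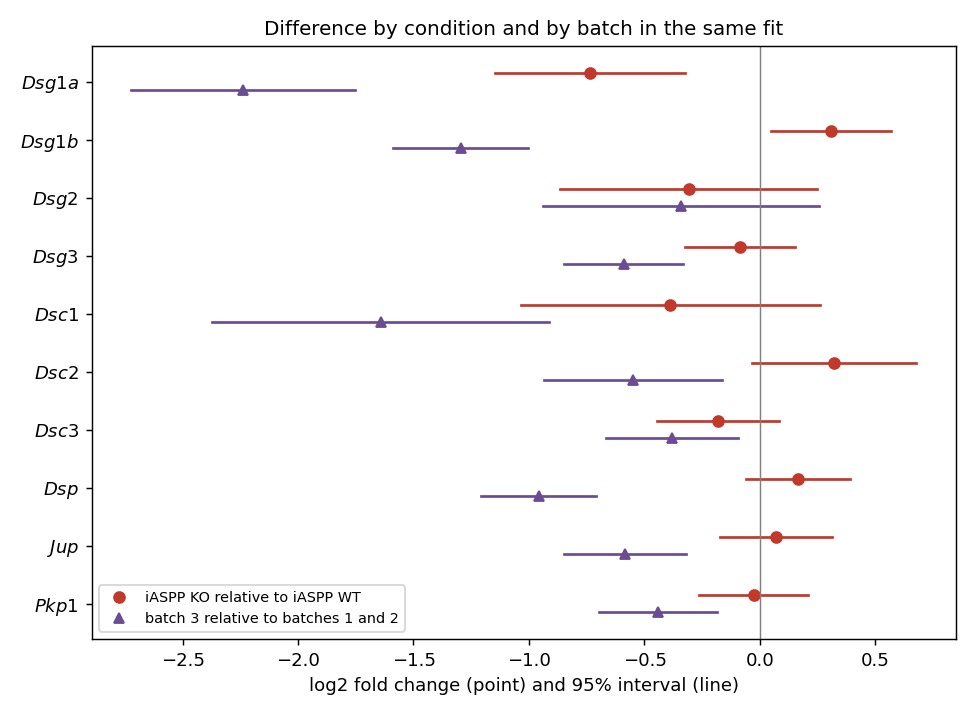
Fitted log2 differences of the 10 desmosome genes between iASPP-KO and iASPP-WT (red circles) and between batch 3 and the mean of batches 1 and 2 (purple triangles), with 95% intervals as lines. The purple points lie below 0 for all 10 genes, from -2.24 to -0.34, whereas the red points spread from -0.74 to 0.32.

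Other desmosome genes were read in the same fit from a list of 10, of which 8 were tested. Dsg1c and Dsg4, the latter a desmoglein of the hair follicle, had at most 12 and 10 counts in a culture and were not tested. In iASPP-KO cultures 2 of the 8 were higher and none lower, against 2.17% and 1.95% of all genes, and the median log2 fold change was 0.070, beside 0.0057 for all genes. The 2 that rose were Cdsn and Ppl, which belong to the differentiated layers rather than to the cadherin core.

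Cdsn (corneodesmosin, chr17:35552128-35557180, plus strand) is laid down on desmosomes as cells cornify. It was at 223, 478 and 91.1 CPM in iASPP-WT and at 776, 838 and 126 CPM in iASPP-KO cultures of batches 1 to 3. It was higher in the iASPP-KO culture of each batch, although the groups overlapped through batch 3, with a log2 fold change of 1.03 ± 0.21 (SE, adjusted p = 0.0257). Its adjusted p was 0.0561 without batch 1, when the log2 fold change was 0.64, 0.0940 by DESeq2 and 0.0974 with the robust dispersion.

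Ppl (periplakin, chr16:5086291-5132421, minus strand) is a plakin of the cornified envelope that also sits at desmosomes. It was at 433, 498 and 167 CPM in iASPP-WT and at 657, 776 and 208 CPM in iASPP-KO cultures of batches 1 to 3. Again each iASPP-KO culture was the higher one and batch 3 was low in both groups (log2 fold change 0.52 ± 0.11, SE, adjusted p = 0.0340). The adjusted p was 0.181 without batch 1 and 0.251 without batch 2.

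Plakophilins other than Pkp1 did not pass the test. Pkp2, the plakophilin of heart and simple epithelia, was at 6.09, 6.52 and 7.26 CPM in iASPP-WT and at 2.90, 5.25 and 4.93 CPM in iASPP-KO cultures. All iASPP-KO levels lay below all iASPP-WT levels, at a low level of expression and with a log2 fold change of -0.64 ± 0.31 (SE, adjusted p = 0.344). Pkp3 and Pkp4 had log2 fold changes of 0.049 and -0.14 (adjusted p = 0.887 and 0.661). Perp, a membrane protein of desmosomes and a p63 target, had one of -0.0061 (adjusted p = 0.985), Evpl (envoplakin, the partner of periplakin) 0.16 (adjusted p = 0.571) and Kazn (kazrin) 0.091 (adjusted p = 0.856). Of the 8 genes tested, 4 were lower in batch 3 (Perp, Cdsn, Ppl and Evpl), against 11.7% of all genes.

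**Figure D5:**
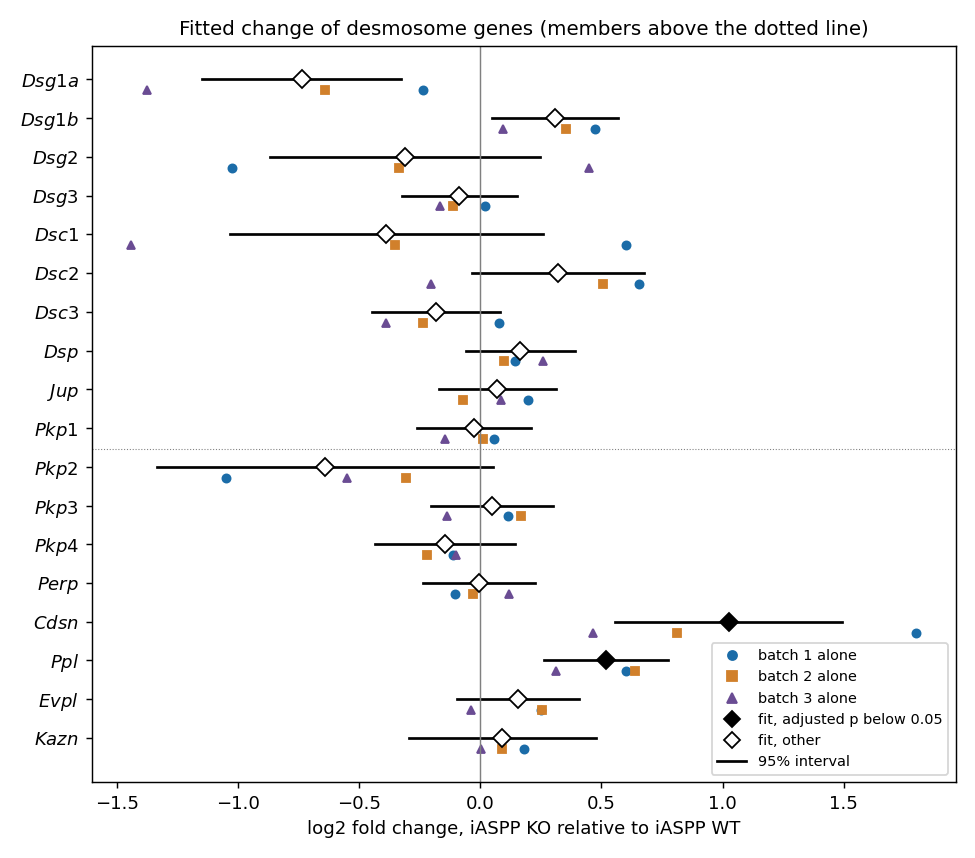
Fitted log2 fold changes between iASPP-KO and iASPP-WT (diamonds, with 95% intervals) of the 10 desmosome genes, above the dotted line, and of 8 other desmosome genes, below it. Coloured symbols give each batch alone. Filled diamonds, those of Cdsn (1.03) and Ppl (0.52), have an adjusted p below 0.05.

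The study related iASPP to AP1 and p63 binding, so the promoters held for these genes were searched for the AP1 motif. The RefSeq promoter table used here (GRCm38) had entries for 2 of the 10 genes, Dsp and Jup, and for 3 of the other desmosome genes, Cdsn, Kazn and Pkp4. The 250 bases before the start are shown for Dsp, the most abundant of the 10 transcripts (chr13:38151044-38151293, plus strand), and for Cdsn, which rose in iASPP-KO cultures (chr17:35551878-35552127, plus strand). A motif match would stand in capitals, and there is none in either.
Dsp: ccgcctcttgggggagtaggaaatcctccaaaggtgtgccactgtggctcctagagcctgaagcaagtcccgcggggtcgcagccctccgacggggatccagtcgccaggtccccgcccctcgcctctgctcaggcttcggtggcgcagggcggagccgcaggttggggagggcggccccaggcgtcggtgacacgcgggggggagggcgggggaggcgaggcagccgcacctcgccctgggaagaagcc
Cdsn: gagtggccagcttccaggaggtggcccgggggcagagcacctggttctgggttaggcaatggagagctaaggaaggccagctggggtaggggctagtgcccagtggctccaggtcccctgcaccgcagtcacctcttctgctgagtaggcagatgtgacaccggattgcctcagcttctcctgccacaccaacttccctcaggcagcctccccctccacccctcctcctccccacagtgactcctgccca
The motif searched was TGANTCA, on both strands. It was found in no entry of these 5 genes, while 6.75% of 32851 promoter entries of the same length held it. This says only that these letters are not in these windows, and most p63 peaks of the study lay farther from a transcription start.

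Adherens junctions hold cells together beside desmosomes and use Jup too, and of 12 of their genes 1 was lower in iASPP-KO cultures and none higher, against 1.95% and 2.17% of all genes (median log2 fold change 0.052). Lima1, which links the cadherin-catenin complex to actin, was at 337, 295 and 288 CPM in iASPP-WT and at 213, 205 and 195 CPM in iASPP-KO cultures of batches 1 to 3. The groups were separate, and the log2 fold change was -0.58 ± 0.11 (SE, adjusted p = 0.0171), although it did not pass without batch 1 (adjusted p = 0.101) or without batch 2 (0.0980). Vinculin (Vcl) and afadin (Afdn), which also join cadherins or nectins to actin, had log2 fold changes of -0.40 and 0.35 (adjusted p = 0.0888 and 0.129). DESeq2 called both (adjusted p = 0.0282 and 0.0477), and Vcl also passed with a filter of only 1 count (0.0496) and without batch 3 (0.0033). Cdh1, the E-cadherin gene, had one of -0.21 (adjusted p = 0.382).

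Of 10 keratins that desmoplakin can anchor, 2 were lower in iASPP-KO cultures and none higher, against 1.95% and 2.17% of all genes (median log2 fold change -0.039). Krt10, a keratin of suprabasal cells, was at 134, 65.6 and 10.1 CPM in iASPP-WT and at 33.2, 21.8 and 9.09 CPM in iASPP-KO cultures of batches 1 to 3. The difference was large in batches 1 and 2 and small in batch 3, with a log2 fold change of -1.31 ± 0.29 (SE, adjusted p = 0.0330). It did not pass without batch 1 (-0.90, adjusted p = 0.161), without batch 2 (-1.14, adjusted p = 0.150), by DESeq2 (adjusted p = 0.146) or with the robust dispersion (0.159).

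Krt17, a keratin of hair follicles and wounded skin, was at 23785, 23555 and 22272 CPM in iASPP-WT and at 20010, 16934 and 11231 CPM in iASPP-KO cultures of batches 1 to 3. All iASPP-KO levels lay below all iASPP-WT levels (log2 fold change -0.57 ± 0.14, SE, adjusted p = 0.0470). The adjusted p was 0.150 without batch 2, 0.108 with the stricter filter and 0.0580 with the robust dispersion. The simple-epithelial pair Krt8 and Krt18 had log2 fold changes of 1.94 and 0.93 (adjusted p = 0.165 and 0.116), with Krt8 at most at 4.00 CPM. Krt18 passed in 4 of 10 alternative fits, by DESeq2 (adjusted p = 0.0376), with a filter of only 1 count (0.0016), without batch 1 (1.41, 0.0142) and without batch 3 (0.62, 0.0326). The basal partners Krt5 and Krt14 had log2 fold changes of -0.057 and -0.022 (adjusted p = 0.842 and 0.947).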

How the data were processed

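RNA of 6 keratinocyte cultures was measured as single 42-base reads. Per the submitters' processing notes and the methods, the authors trimmed reads with cutadapt 2.10, aligned them to mm10 (GRCm38) with STAR 2.7.3 and the GENCODE vM25 annotation, and deposited raw counts of reads per gene name, made by featureCounts 2.0.0 on exons and by strand, with exon lengths. The authors' deposited DESeq2 comparison (fold changes and p-values) was not used. All columns of counts were used.

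Counts were fitted with edgeR 4.0.16 (R 4.3.3), with TMM scaling after filterByExpr, a model of batch and condition, glmQLFit and glmQLFTest, Benjamini-Hochberg adjustment over 14916 genes, and a threshold of 0.05. CPM values use TMM-scaled library sizes, and within-batch log2 fold changes a prior count of 2. A standard error is the log2 fold change divided by the square root of F. DESeq2 1.42.0 was the alternative tool. The steps were checked on simulated counts.

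Cultures were grouped by title and paired by the batch label. Deviations from the group means correlated at 0.302, 0.368 and 0.568 within the 3 batches. Replicates are cultures of separate batches, and no pair had counts within sampling noise. Precision from depth covers counting error only.

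The 10 genes, the lists and the tests were chosen with earlier results of these data known. Named were all 10 genes, Ppp1r13l and, from each other list, genes past the threshold and up to 3 with the largest absolute log2 fold change. Other genes are named as examples. No exon of another gene overlapped those of the 10 genes on the same strand. Windows were compared in GENCODE vM21 transcripts, an annotation other than the authors'. Alternatives were other scaling, filters, dispersion, pairing and leaving out each batch.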

Additional observations from a re-analysis of the deposited data

How the results depend on the processing

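Without the replicate block, that is with condition alone in the model, no gene passed in edgeR (691 of 14916 at an unadjusted p below 0.05, and 0 of the 10 desmosome genes), so the other desmosome genes had 0 higher and the adherens junction genes and keratins 0 lower. The number of desmosome genes lower in iASPP-KO was 1 (Dsg1a) with DESeq2, DESeq2's size factors, upper-quartile scaling, a filter of only 1 count in all, and a stricter filter of 10 counts in each culture. Leaving out each batch gave 0 to 2 lower and 0 to 2 higher. For the other desmosome genes higher, DESeq2 and the robust dispersion gave 1 (Ppl), and leaving out a batch 0 to 2. For adherens junction genes, DESeq2 gave 1 higher and 2 lower, no filter gave 2 lower, and leaving out a batch 0 to 2 lower. For keratins, DESeq2 gave 1 higher and 1 lower, no filter gave 2 higher, the stricter filter 1 lower, the robust dispersion 0 lower, and leaving out a batch 0 to 2 higher and 0 to 3 lower. The mean difference in Dsg1a share was -10.3 percentage points with counts per kilobase, an alternative chosen after seeing the data. Leaving out each batch gave log2 fold changes of -0.68 to 0.057 for Dsg2, positive without batch 1, and of -0.89 to 0.13 for Dsc1 and -0.064 to 0.034 for Pkp1, both positive without batch 3. The log2 ratio of Dsc1 to Dsc3 likewise ran from -0.58 to 0.21, and the Dsg1a share difference from -13.3 to -11.4. The causes were not tested.

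Over all genes, 323 were called higher and 291 lower, against 624 and 491 with the 1-count filter, 793 and 662 without batch 3, 169 and 151 without batch 1, and 174 and 117 without batch 2. Of the 10 desmosome genes, Dsc1 (-1.03 to 0.26) and Dsg2 (-0.87 to 0.25, at 357 to 712 counts) had the broadest 95% intervals.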
